A study of Mus musculus with 6 samples.

Results

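The genes described here encode the secreted transforming growth factor-β (TGF-β) ligands, their receptors and the proteins that hold the ligands in a latent form. The 10 members, chosen by symbol, were the 3 ligands Tgfb1, Tgfb2 and Tgfb3, the 3 receptors Tgfbr1, Tgfbr2 and Tgfbr3, and the 4 latent TGF-β binding protein genes Ltbp1, Ltbp2, Ltbp3 and Ltbp4. All 10 were found among the 22026 gene symbols listed. Gene expression was measured by RNAseq in endothelial cells (ECs) freshly sorted from the RPE/choroid of 129/B6 mice. The choroid is the vascular bed behind the retinal pigment epithelium (RPE). The labels name no treatment, and mice were taken at postnatal day 5 (P5), while the outer retina is still differentiating, or at postnatal day 30 (P30), when vision is mature. There were 3 isolations per age, and each pooled the 14 eyes of 7 animals, of both sexes at P30. ECs were labelled in the living animal with an antibody to VE-Cadherin, which was given in a smaller amount to the P5 pups, and then sorted by flow cytometry. The P5 pups were anaesthetized by hypothermia, and the method used for the P30 mice is not named. Age can therefore not be told apart from the antibody amount, nor from the anaesthesia if its method differed.

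TGF-β is secreted bound to its own propeptide, and this latent complex is usually linked to a latent TGF-β binding protein (LTBP), which fixes it to fibrillin and other matrix fibres. LTBP2 is the exception in the family, as it does not bind the latent ligand. Integrins, thrombospondin and proteases release the ligand, which binds TGFBR2 and then TGFBR1 (ALK5), and TGFBR1 phosphorylates SMAD2 and SMAD3. TGFBR3 (betaglycan) is a co-receptor without kinase activity that presents the ligand, above all TGF-β2, to TGFBR2. ECs also carry ACVRL1 (ALK1) and its co-receptor endoglin, which signal through SMAD1 and SMAD5. TGF-β signalling is known for its roles in vessel maturation, in contact between ECs and mural cells, and in the synthesis of vascular matrix.

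Ltbp1 and Ltbp4 are both known to be transcribed from more than 1 start, which gives long and short proteins. The stretches before these starts are shown because both genes were higher at P30 in every isolation, while the FPKM values (fragments scaled to transcript length and to library size) are given per symbol and do not say which start was used. The sequences are 5′ to 3′ on the strand of the gene and come from RefSeq's promoter entries (GRCm38.p6). Each was found exactly once in mm9, the build of the deposited files, and mm9 positions are given. Annotated exons were left out. Capitals mark the SMAD box, CAGAC on either strand (GTCTG on the other), the short motif that SMAD3 and SMAD4 bind.

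Ltbp1, upstream start, chr17:75404619-75404868 (+): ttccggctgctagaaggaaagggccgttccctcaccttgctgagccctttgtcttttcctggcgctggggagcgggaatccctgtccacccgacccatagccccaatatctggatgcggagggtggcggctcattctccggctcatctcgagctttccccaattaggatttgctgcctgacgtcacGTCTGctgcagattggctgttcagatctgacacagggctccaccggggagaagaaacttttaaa
Ltbp1, downstream start, chr17:75577871-75578120 (+): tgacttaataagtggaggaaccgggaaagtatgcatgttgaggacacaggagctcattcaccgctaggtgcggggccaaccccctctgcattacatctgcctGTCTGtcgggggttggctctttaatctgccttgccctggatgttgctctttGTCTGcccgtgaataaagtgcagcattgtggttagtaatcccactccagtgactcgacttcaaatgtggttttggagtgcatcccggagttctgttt
Ltbp4, upstream start, chr7:28122712-28122881 (-): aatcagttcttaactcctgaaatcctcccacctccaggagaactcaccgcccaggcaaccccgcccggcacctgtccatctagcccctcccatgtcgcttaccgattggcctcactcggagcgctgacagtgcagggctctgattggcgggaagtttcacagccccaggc
Ltbp4, downstream start, chr7:28118683-28118932 (-): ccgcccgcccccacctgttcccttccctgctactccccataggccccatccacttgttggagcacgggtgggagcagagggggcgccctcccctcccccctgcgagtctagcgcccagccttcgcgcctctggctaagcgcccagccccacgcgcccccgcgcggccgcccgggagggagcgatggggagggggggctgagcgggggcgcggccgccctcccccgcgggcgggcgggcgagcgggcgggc

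The 2 starts of Ltbp1 lay 173252 bases apart, and the outer of the 3 starts of Ltbp4 lay 3964 bases apart. The upstream stretch of Ltbp1 held 1 SMAD box and the downstream one held 2, whereas those of Ltbp4 held 0. A SMAD box was found in 42.2% of all 32851 windows of 250 bases before a start, so a match is a description only. The 250-base windows before the Ltbp4 starts were rich in G and C, at 64.4% and 79.2% against a median of 52.4% over all windows. For Ltbp1 the values were 56.8% and 50.8%. Entries were found for 8 of the 10 members, and Tgfb3 and Tgfbr3 had none.

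The defining EC markers (7 genes, among them Pecam1, Cdh5 and Kdr) were high at both ages, with summed FPKM of 17647 to 18123 at P5 and 24173 to 29610 at P30. Of these markers, 4 of 7 (Kdr, Tie1, Emcn and Plvap) had every P30 isolation above every P5 isolation, Pecam1 and Tek overlapped, and Cdh5 was below. Plvap, which marks fenestrated ECs, and Emcn made up most of the higher sum, with mean FPKM of 4692 and 3002 at P5 and 11590 and 5523 at P30. Cdh5, the gene of the antigen used for the sort, had mean FPKM of 2971 and 1885 (limma, adjusted p = 0.00205, short of 2-fold). Markers of other cells were present as well. The summed FPKM of 6 pericyte markers was 468 to 1709 at P5 and 1814 to 6160 at P30, that of 6 smooth muscle markers 536 to 563 and 613 to 1254, that of 7 fibroblast markers 725 to 1193 and 1782 to 4490, and that of 7 RPE markers 65.5 to 144 and 495 to 3796. All 7 RPE markers, 6 of 6 photoreceptor markers, 4 of 7 fibroblast markers, 5 of 6 smooth muscle markers and 3 of 6 pericyte markers had every P30 isolation above every P5 isolation. The summed haematopoietic markers (7 genes) overlapped, at 751 to 1087 and 307 to 828. Of these, Ptprc, Csf1r, Emr1 and C1qa were lower in every P30 isolation, while Cd68, Itgam and Lyz2 overlapped. The summed photoreceptor markers (6 genes) were 15.8 to 26.4 and 58.2 to 389, and the summed melanocyte markers (5 genes) were 97.0 to 457 and 120 to 1251. The fibroblast marker Dpt was listed at 0 in every P5 isolation. TGF-β ligands and LTBPs are made by mural cells, fibroblasts and RPE as well as by ECs, and the part of these cells in the differences below was not tested. In such bulk samples, fewer cells of a type and less RNA per cell cannot be told apart.

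Of the 10 members, 3 rose between P5 and P30 (Tgfb3, Tgfbr3 and Ltbp4) and 0 fell. A gene was called when its mean FPKM + 1 differed at least 2-fold and its Benjamini-Hochberg adjusted p from limma was under 0.01. The test was run on the 12481 genes whose mean reached 5 FPKM in 1 or both age groups. Of all genes tested, 735 (5.89%) were called higher and 726 (5.82%) lower at P30. When the isolations were instead rescaled to the same summed FPKM, which moved the median log2 fold change of all genes from −0.10 to −0.27, 632 were higher and 1070 lower. At an unadjusted limma p under 0.05, 4 of the 9 members tested were higher, against 20.7% of all genes, and 2 were lower, against 28.8%. At an adjusted p under 0.01 and any fold, 4 of the 9 members tested were higher, against 8.51% of all genes, and 1 was lower, against 10.7%. Every P30 isolation lay above every P5 isolation for 4 of the 9 members, against 22.0% of all genes, and below for 2, against 33.0%. The 9 members tested had a median log2 fold change of 0.34, and all genes tested had one of −0.10. The call of each of the 3 risen members depended on single libraries, as given with each gene. Without P5 replicate 2 the only member called was Ltbp4, and without P5 replicate 3 it was Ltbp1.

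**Figure D1:**
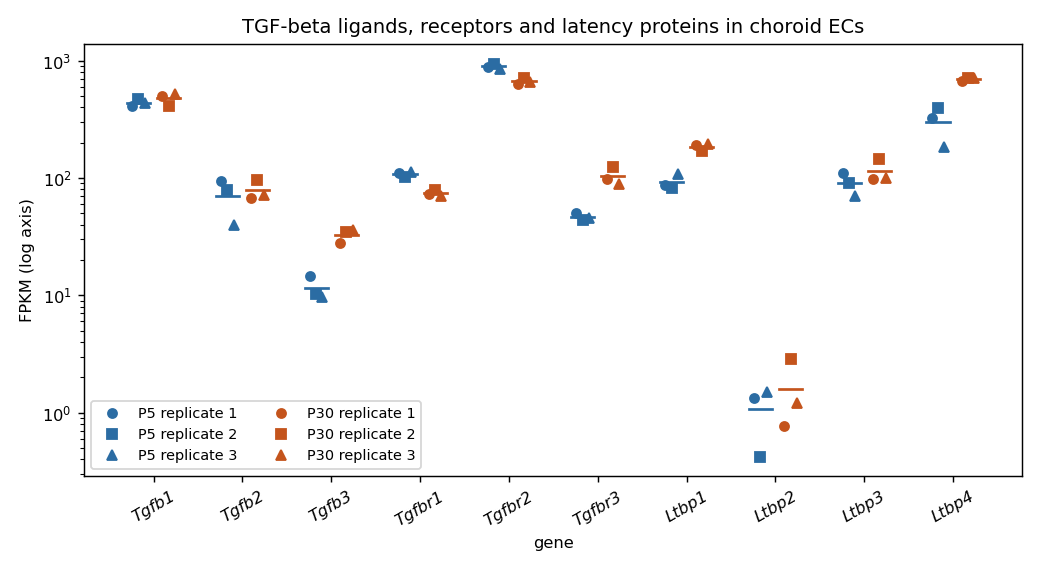
FPKM (log axis) of the 10 genes in each of the 3 P5 (blue) and 3 P30 (orange) isolations, with symbols for the replicate number and horizontal lines for the mean of each age. The P30 points lie clear above the P5 points for Tgfb3, Tgfbr3, Ltbp1 and Ltbp4, clear below them for Tgfbr1 and Tgfbr2, and among them for the others.

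The FPKM scale corrects for transcript length, so levels can be set side by side. At P5 the order of the mean levels was Tgfbr2, Tgfb1, Ltbp4, Tgfbr1, Ltbp1, Ltbp3, Tgfb2, Tgfbr3, Tgfb3 and Ltbp2. The isolations of neighbouring genes overlapped from Tgfbr1 to Tgfbr3 in this order, and all other neighbours were apart. At P30 the order was Ltbp4, Tgfbr2, Tgfb1, Ltbp1, Ltbp3, Tgfbr3, Tgfb2, Tgfbr1, Tgfb3 and Ltbp2. Here Ltbp4 overlapped Tgfbr2, and the neighbours from Ltbp3 to Tgfbr1 overlapped each other. Tgfbr1 moved from the fourth place to the eighth, and Ltbp4 from the third to the first.

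Among the ligands, Tgfb1 was by far the most abundant at both ages, and Tgfb3 was the ligand that rose. Tgfb1 (chr7:26472021-26490096, plus strand, mm9) encodes the main TGF-β of endothelium and blood cells. Its FPKM was 410.2, 467.8 and 438.8 at P5 and 500.9, 407.1 and 520.0 at P30. The ages overlapped, and the P30 value of replicate 2 was the lowest of all 6. The means of 439 ± 28.8 and 476 ± 60.4 (SD, n = 3 each) gave a log2 fold change of 0.11 ± 0.12 (limma SE, adjusted p = 0.487). Its sign was not stable, at −0.06 both under quantile normalization (limma, adjusted p = 0.754) and after rescaling to the same summed FPKM (limma, adjusted p = 0.740).

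Tgfb2 (chr1:188447065-188529871, minus strand) encodes the ligand that depends most on betaglycan. Its FPKM was 93.7, 78.6 and 40.05 at P5 and 68.1, 95.3 and 72.0 at P30. The ages overlapped, with the lowest value in P5 replicate 3. The log2 fold change was 0.22 ± 0.31 (limma SE, adjusted p = 0.600), and without P5 replicate 3 it was −0.14.

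Tgfb3 (chr12:87397694-87419991, minus strand) encodes the third ligand, which is best known from palate closure and scar formation. Its FPKM was 14.6, 10.2 and 9.62 at P5 and 28.2, 34.6 and 35.9 at P30. Each P30 isolation lay above each P5 isolation. The mean rose from 11.5 ± 2.71 to 32.9 ± 4.15 (SD, n = 3 each), 2.72-fold in FPKM + 1 (log2 fold change 1.46 ± 0.22, limma SE, adjusted p = 0.00251). Without P5 replicate 2 or P5 replicate 3, the adjusted p of limma was 0.0169 and 0.0147, with log2 fold changes of 1.39 and 1.35. Even at P30, Tgfb3 was 5.63% ± 0.869 of the summed FPKM of the ligands, after 2.21% ± 0.529 at P5 (SD, n = 3 each). Tgfb1 held 84.3% ± 5.36 and 80.8% ± 4.38, and the 2 ages overlapped in this share.

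The receptors moved in different directions. Both signalling receptors had lower values at P30, although neither passed both limits, and the co-receptor Tgfbr3 rose. Tgfbr2 (chr9:115993415-116084383, minus strand), which encodes the receptor that binds the ligand first, had FPKM of 884, 943 and 852 at P5 and 632, 714 and 654 at P30. Each P30 isolation lay below each P5 isolation. The means of 893 ± 46.2 and 667 ± 42.4 (SD, n = 3 each) stood in a ratio of 0.747 in FPKM + 1, and the log2 fold change of −0.42 ± 0.09 (limma SE) had an adjusted p of 0.0121.

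Tgfbr1 (chr4:47366094-47427803, plus strand), which encodes the kinase that activates SMAD2 and SMAD3, had FPKM of 111.0, 101.4 and 111.8 at P5 and 72.5, 79.6 and 70.4 at P30. Here too the ages did not overlap. The means of 108 ± 5.75 and 74.1 ± 4.84 (SD, n = 3 each) gave a ratio of 0.689 in FPKM + 1, short of 2-fold, and the log2 fold change of −0.54 ± 0.11 (limma SE) had an adjusted p of 0.00772. The ratio of Tgfbr2 to Tgfbr1 was 8.29 ± 0.884 at P5 and 8.996 ± 0.288 at P30 (SD, n = 3 each), with overlap.

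Tgfbr3 (chr5:107535589-107718648, minus strand) had FPKM of 50.6, 43.5 and 45.3 at P5 and 97.7, 123.7 and 88.6 at P30. Each P30 isolation lay above each P5 isolation. The mean rose from 46.5 ± 3.73 to 103 ± 18.2 (SD, n = 3 each), 2.20-fold in FPKM + 1 (log2 fold change 1.13 ± 0.15, limma SE, adjusted p = 0.00170). Without P5 replicate 2 or P5 replicate 3, the adjusted p of limma was 0.0124 and 0.0119. Without P30 replicate 2 (log2 fold change 0.99) and after rescaling to the same summed FPKM (0.96), the difference was under 2-fold. The ratio of Tgfbr2 to Tgfbr3 was 19.3 ± 2.16 at P5 and 6.54 ± 0.811 at P30 (SD, n = 3 each), without overlap. In the summed receptor FPKM, the share of Tgfbr3 was 4.44% ± 0.425 at P5 and 12.2% ± 1.30 at P30 (SD, n = 3 each), again without overlap.

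**Figure D2:**
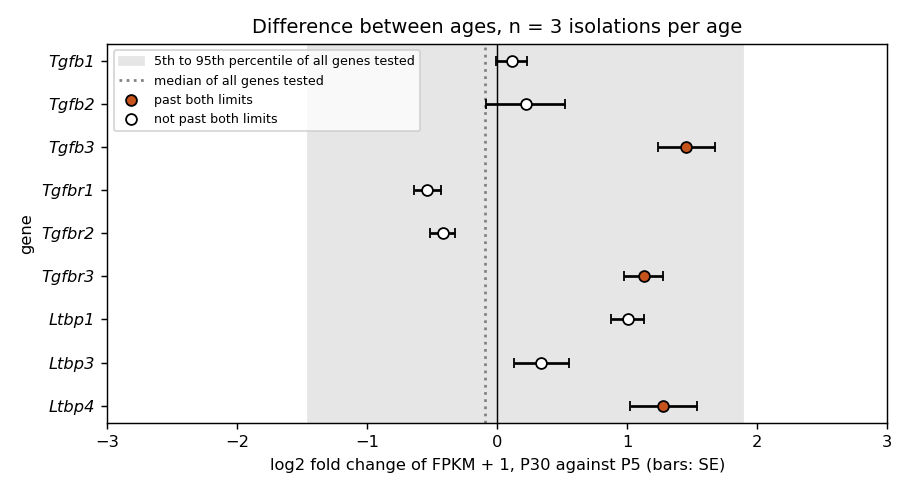
Log2 fold change of FPKM + 1 (P30 against P5, horizontal axis) of the 9 genes tested, with limma SE as bars. Filled points passed both limits, the grey band runs from the 5th to the 95th percentile of all genes tested (−1.46 to 1.89), and the dotted line is their median (−0.10). Tgfb3, Tgfbr3 and Ltbp4 are the filled points, Ltbp1 sits at 1.002, and all 9 points lie inside the band.

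Of the latency proteins, Ltbp4 rose, Ltbp1 lay at the 2-fold limit and Ltbp3 was within the spread of the isolations. Ltbp4 (chr7:28090155-28122711, minus strand) encodes an LTBP that is also needed for elastic fibre assembly. Its FPKM was 321, 398 and 184 at P5 and 667, 712 and 711 at P30. The P5 isolations were spread widely, with replicate 3 the lowest, and each P30 isolation lay above all of them. The mean rose from 301 ± 108 to 697 ± 25.8 (SD, n = 3 each), 2.31-fold in FPKM + 1 (log2 fold change 1.28 ± 0.26, limma SE, adjusted p = 0.00795). This call was close to the limit. The adjusted p of limma was 0.0190 to 0.0238 when P5 replicate 1, P30 replicate 1, P30 replicate 2 or P30 replicate 3 was left out, and without P5 replicate 3 the log2 fold change was 0.96 (adjusted p = 0.00619).

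Ltbp1 (chr17:75404908-75791852, plus strand), the most studied carrier of latent TGF-β1, had FPKM of 86.7, 82.6 and 107.2 at P5 and 189.7, 170.6 and 193.7 at P30. Each P30 isolation lay above each P5 isolation. The means were 92.2 ± 13.2 and 185 ± 12.4 (SD, n = 3 each), a 1.99-fold difference in FPKM + 1 (log2 fold change 1.002 ± 0.13, limma SE, adjusted p = 0.00135). Its adjusted p was the smallest of the 9 members tested, and the fold was just short of the limit. It passed both limits with 4 of the alternatives, among them a pseudocount of 0.1 and leaving out P5 replicate 3 or P30 replicate 2.

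Ltbp3 (chr19:5740904-5758532, plus strand), another carrier of the latent ligand, had FPKM of 109.3, 90.8 and 70.6 at P5 and 98.0, 145.6 and 99.9 at P30. The ages overlapped (log2 fold change 0.34 ± 0.21, limma SE, adjusted p = 0.237). Whether strand was used for the FPKM values is not given in the sources used here, so reads from the opposite strand may be part of these values.

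Ltbp2 (chr12:86124162-86217482, minus strand), a protein of elastic microfibrils, was scarcely measured. Its FPKM was 1.33, 0.420 and 1.49 at P5 and 0.770, 2.84 and 1.20 at P30, under the minimum of the test. The ages overlapped. With a minimum mean FPKM of 1 its log2 fold change was 0.29 (limma, adjusted p = 0.659). Its exons overlap D030025P21Rik on the other strand, which was listed at 0 in all 6 isolations.

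When the FPKM values were summed over each class, as a description without a test, the latency proteins stood out. Their sum was 519, 572 and 364 at P5 and 955, 1031 and 1006 at P30. On average it was 2.06 times as high at P30, or 1.83 times after rescaling to the same summed FPKM. The ages did not overlap, and most of the sum was Ltbp4, with 60.7% ± 9.52 at P5 and 69.9% ± 0.812 at P30 (SD, n = 3 each). The share of Ltbp3 was lower at P30 in every isolation (18.8% ± 2.66 and 11.4% ± 2.33).

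The ligand sum was 518.5, 556.7 and 488.5 at P5 and 597.2, 537.0 and 627.9 at P30. These ages overlapped, and the mean ratio was 1.13, or 1.01 after rescaling to the same summed FPKM. The receptor sum was 1046, 1088 and 1009 at P5 and 802.0, 917.2 and 813.2 at P30, lower in every P30 isolation. Its ratio was 0.806, or 0.715 after the same rescaling. Per 100 FPKM of latency proteins there were 111 ± 20.7 FPKM of ligands at P5 and 59.0 ± 6.01 at P30 (SD, n = 3 each), and the ages did not overlap.

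**Figure D3:**
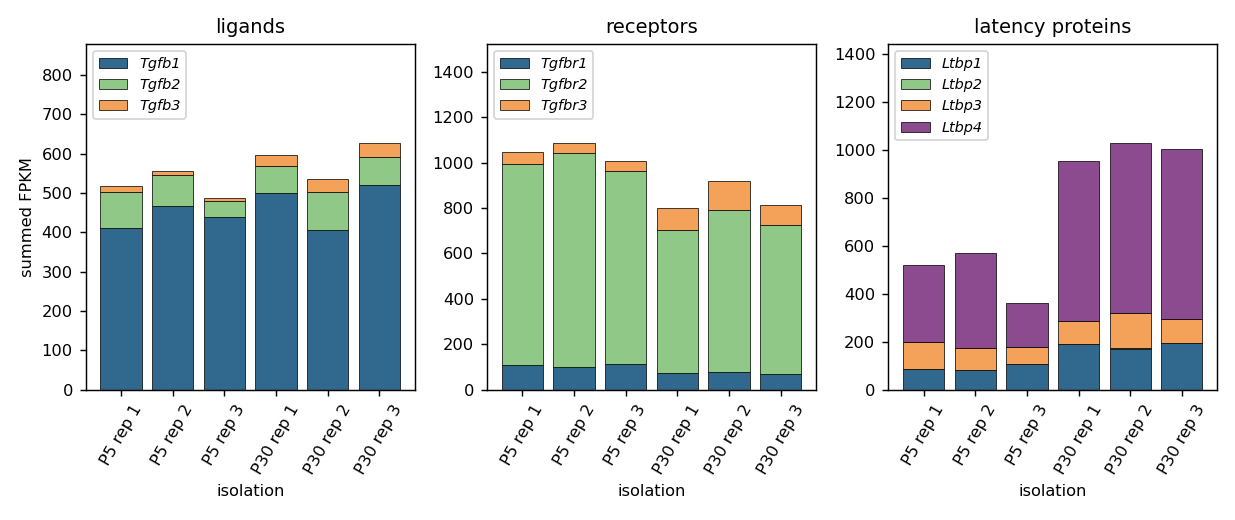
Summed FPKM (vertical axis, from 0) of the ligands, receptors and latency proteins in each of the 6 isolations, with the members stacked in colours. Tgfb1 fills most of the ligand bars and Tgfbr2 most of the receptor bars at both ages, and the latency protein bars are 364 to 572 at P5 and 955 to 1031 at P30.

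The isolations of an age also differed among themselves, and for 2 members the order of the isolations was that of the pericyte markers. The summed pericyte FPKM was highest in replicate 1, then 2, then 3 at P5, and highest in replicate 2, then 3, then 1 at P30. Tgfb2 and Ltbp3 had this order at both ages, as did 827 of the 12481 genes tested (6.63%). Tgfb1 had the order of the EC markers at both ages (0.953% of genes) and Tgfbr1 that of the smooth muscle markers (2.65%). No other member tested followed any of the 8 marker lists at both ages. Within a single age, some marker lists shared the same order, so such a match does not single out a cell type. Tgfb3 at P5 had the order shared by the pericyte, haematopoietic and melanocyte markers. Ltbp4 and Tgfbr2 at P30 had that shared by the pericyte and fibroblast markers. Tgfbr3 had that shared by the RPE, photoreceptor and fibroblast markers at P5 and that of the smooth muscle markers at P30. Ltbp1 had that of the smooth muscle markers at P5 and that of the EC markers at P30. The share of all genes with such a match in a single age was not calculated. The order within an age cannot say where a difference between the ages came from. The part of these cells in the values was not tested.

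**Figure D4:**
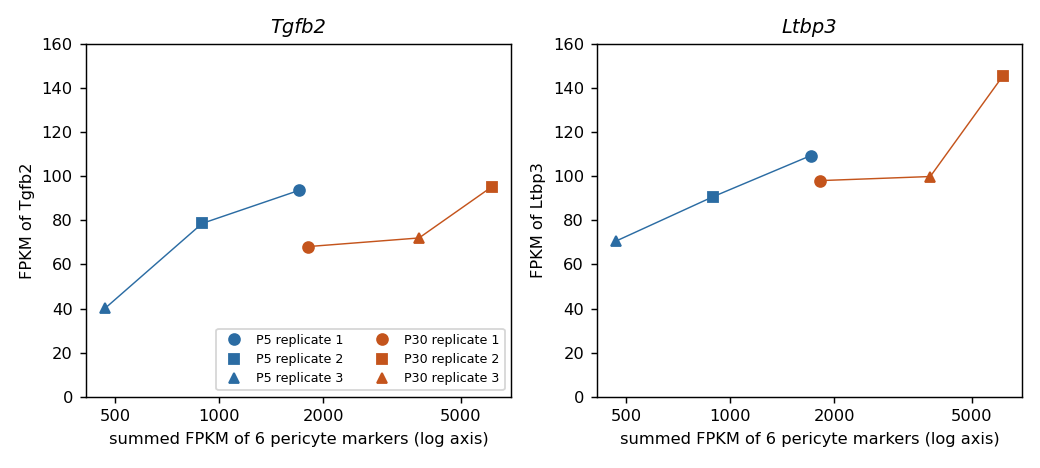
FPKM of Tgfb2 (left) and Ltbp3 (right) against the summed FPKM of 6 pericyte markers (log axis), with 1 point per isolation and thin lines joining the isolations of an age (P5 blue, P30 orange). Within each age both genes are ordered as the pericyte markers are, while the P30 points lie to the right of all P5 points at similar heights.

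For the members that rose, the genes of most similar pattern were sought by the root mean square (RMS) difference of log2(FPKM + 1) over the 6 isolations, each gene centred on its own mean. Nearest to Tgfb3 were Pcdhb12 (RMS difference 0.075), the Wnt receptor gene Fzd8 (0.087) and Plscr4 (0.101). Nearest to Tgfbr3 were Zfp593 (0.045), the claudin gene Cldn12 (0.076) and Eepd1 (0.076). Nearest to Ltbp4 were Emp2 (0.111), the transcription factor gene Foxq1 (0.116) and Atp6v0e2 (0.129), which were likewise lowest in P5 replicate 3. Within a difference of 0.2 there were 70 genes for Tgfb3, 180 for Tgfbr3 and 16 for Ltbp4.

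The other genes of the pathway were taken from 6 lists with 55 genes in all, of which 53 were tested. In total 13 rose (24.5%, against 5.89% of all genes tested) and 2 fell (3.8%, against 5.82%), and the median log2 fold change was 0.25. After rescaling to the same summed FPKM, 12 were higher and 7 lower. The lists below are also counted at an unadjusted limma p under 0.05, at which 20.7% of all genes tested were higher and 28.8% lower. Fn1, Skil, Smad7 and Pmepa1 are each on more than 1 list, so the counts by list are not independent. Smad7 is among the risen genes of both lists that hold it. Without P5 replicate 2 or without P5 replicate 3, the same 8 genes remained higher (Ctgf, Dcn, Fmod, Id1, Id3, Itgb5, Lrrc32 and Smad6), and these were called higher in each of the 6 fits that left out 1 library. Neither Fbn2 nor Tgif2, the genes that fell, was called without P5 replicate 1, P5 replicate 2, P5 replicate 3 or P30 replicate 3, nor was Tgif2 without P30 replicate 1.

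Among the activators and cell surface carriers of the latent complex, 5 of the 11 genes tested rose (45.5%, against 5.89% of all genes) and 0 fell. The median log2 fold change was 0.65 (limma, unadjusted p under 0.05 for 6 higher and 4 lower). Lrrc32 encodes GARP, which holds latent TGF-β on the cell surface. Its FPKM was 102.9, 118.6 and 54.1 at P5 and 578.0, 469.0 and 413.6 at P30, a log2 fold change of 2.45 ± 0.29 (limma SE, adjusted p = 0.000898) without overlap. Itgb8, whose integrin αvβ8 frees TGF-β from its propeptide, had FPKM of 1.36, 0 and 0.870 in the P5 isolations and 33.0, 33.8 and 10.3 in those of P30 (log2 fold change 3.85 ± 0.57, limma SE, adjusted p = 0.00231). P30 replicate 3, the lowest of the P30 isolations for Itgb8, also had the lowest RPE marker sum (3796, 2109 and 495 in replicates 1, 2 and 3). The photoreceptor, melanocyte and smooth muscle marker sums were lowest in the same P30 isolation. The part of these cells in the values of Itgb8 was not tested. Itgb3 (2.04) and Itgb5 (1.90), partners of αv as well, also rose. Without being called, Mmp14 (−1.11), Mmp2 (−0.93), Itgb1 (−0.51) and Lrrc33 (−0.47) were lower in every P30 isolation. Furin (0.65), not called either, was higher in every P30 isolation, and Itgav, the gene of αv, overlapped. After rescaling to the same summed FPKM, Mmp14 and Mmp2 were called lower. Of the 5 genes that rose, Itgb3 and the thrombospondin gene Thbs1 were not called without P5 replicate 1, and these as well as Itgb8 were not called without P5 replicate 2 or P5 replicate 3. Without P30 replicate 2 the calls of Itgb3 and Itgb8 were lost, and without P30 replicate 3 that of Itgb3.

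Of the matrix proteins that anchor the latent complex or bind TGF-β, 2 of 9 rose (22.2%, against 5.89% of all genes) and 1 fell (11.1%, against 5.82%). The median log2 fold change was −0.05 (limma, unadjusted p under 0.05 for 2 higher and 4 lower). Without being called, Emilin1 (−0.93), Fn1 (−0.87) and Fbln5 (−0.635) were lower in every P30 isolation, and Fbn1, Efemp2 and Bgn overlapped. Dcn (3.27) and Fmod (2.92) encode small proteoglycans that bind TGF-β. Dcn is also 1 of the 7 fibroblast markers above, and its FPKM was 66.5 to 152 at P5 and 820 to 1439 at P30. Fbn2, the gene of the fibrillin most abundant before birth, fell from 67.6, 53.0 and 55.4 to 5.09, 19.9 and 7.21 FPKM (log2 fold change −2.55 ± 0.43, limma SE, adjusted p = 0.00397). Each P30 isolation lay below each P5 isolation.

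**Figure D5:**
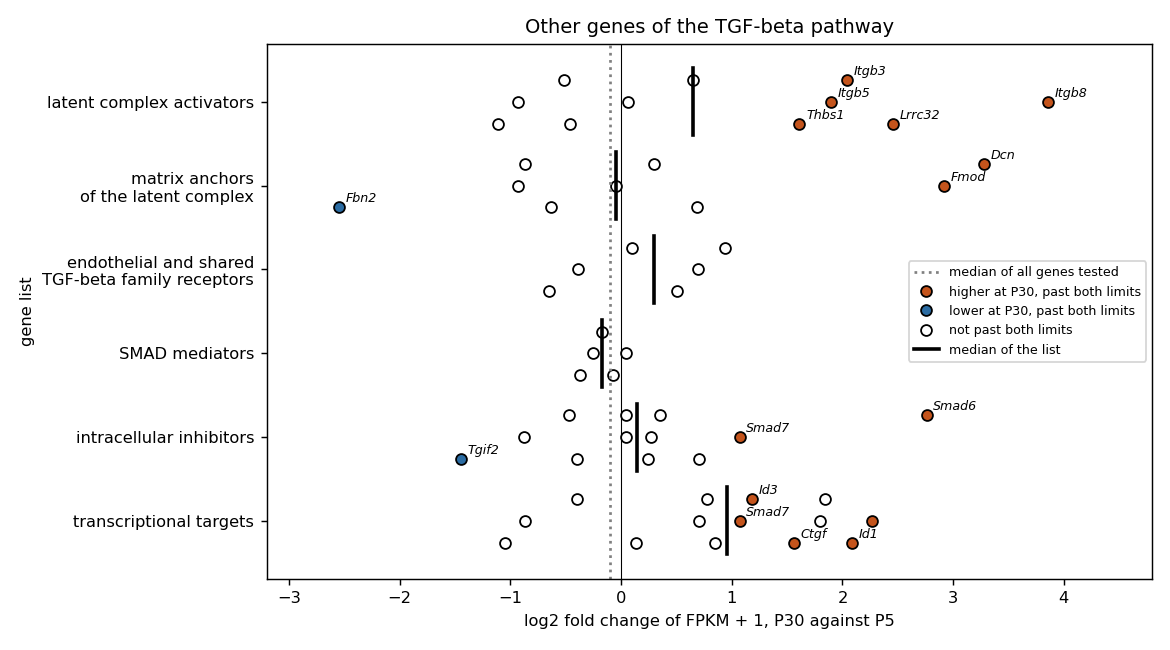
Log2 fold change of FPKM + 1 (P30 against P5, horizontal axis) of each gene tested in 6 lists of pathway genes. Orange points rose and blue points fell past both limits, most of them with their names, white points did neither, and thick bars are the median of each list. The receptor and SMAD mediator rows hold white points only, while the activator and target rows hold 5 orange points each.

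Of the other TGF-β family receptors of ECs, 0 of 6 passed both limits in either direction (limma, unadjusted p under 0.05 for 3 higher and 2 lower), with a median log2 fold change of 0.30. Eng, the gene of endoglin, came nearest. Its FPKM was 1981, 1987 and 1627 at P5 and 3915, 3029 and 3833 at P30, 1.93-fold in FPKM + 1 (log2 fold change 0.94 ± 0.14, limma SE, adjusted p = 0.00273). Acvrl1 had FPKM of 709.1, 716.6 and 505.9 in the P5 isolations and 1126, 918.0 and 1058 in those of P30 (log2 fold change 0.70 ± 0.16, limma SE, adjusted p = 0.0130). For both, each P30 isolation lay above each P5 isolation. Under quantile normalization the log2 fold changes were 0.43 for Eng and 0.44 for Acvrl1 (limma, adjusted p = 0.0322 and 0.0682). With any P5 isolation left out, the adjusted p of Eng from limma was 0.0111 to 0.0146. Without P30 replicate 2, Eng was called higher. The ratio of Acvrl1 to Tgfbr1, the ALK1 and ALK5 genes, was 6.39, 7.06 and 4.53 at P5 and 15.6, 11.5 and 15.0 at P30, without overlap. The activin and BMP receptor genes had log2 fold changes of −0.39 (Acvr1), 0.51 (Bmpr2), −0.66 (Acvr2a) and 0.10 (Acvr2b), with adjusted p from limma of 0.0681, 0.0937, 0.0189 and 0.770.

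The SMAD mediators differed little. Of the 5 genes, 0 passed the limits in either direction (limma, unadjusted p under 0.05 for 0 higher and 2 lower), and their median log2 fold change was −0.17. Smad2, at 125 to 150 FPKM at P5 and 92.0 to 123 at P30, had a log2 fold change of −0.37 ± 0.14 (limma SE, adjusted p = 0.0724). Values were −0.17 for Smad3, −0.26 for the shared partner Smad4, −0.07 for Zfyve9, which encodes the receptor anchor SARA, and 0.05 for Hgs (limma, adjusted p = 0.258, 0.0991, 0.746 and 0.722).

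Of the 12 intracellular inhibitors, 2 rose (16.7%, against 5.89% of all genes) and 1 fell (8.3%, against 5.82%). The median log2 fold change was 0.15 (limma, unadjusted p under 0.05 for 4 higher and 2 lower). Smad6, the inhibitory SMAD that acts mostly on the BMP and ALK1 branch, had FPKM of 82.3, 74.8 and 47.5 in the P5 isolations and 442.0, 339.7 and 629.2 in those of P30 (log2 fold change 2.76 ± 0.27, limma SE, adjusted p = 0.000483). Smad7, which blocks TGFBR1, had 110.9, 117.5 and 99.1 in the P5 isolations and 248.2, 173.7 and 282.3 in those of P30 (log2 fold change 1.07 ± 0.18, limma SE, adjusted p = 0.00425). The ages did not overlap for either gene. Smad7 was called only in the fit without P30 replicate 2 when single libraries were left out. The corepressor gene Tgif2 fell by 1.45 on the log2 scale (limma, adjusted p = 0.00680).

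Of the 14 transcriptional targets, 5 rose (35.7%, against 5.89% of all genes) and 0 fell. The median log2 fold change was 0.96 (limma, unadjusted p under 0.05 for 9 higher and 2 lower). Among the genes that rose were Id1 (log2 fold change 2.09), the matricellular protein gene Ctgf (1.56) and Id3 (1.18). ID1 and ID3 are best known as targets of the ALK1 and SMAD1/5 branch. Id1 had FPKM of 735.7, 743.2 and 578.9 at P5 and 3609, 2069 and 3270 at P30, and Ctgf had 357.6, 329.3 and 370.3 at P5 and 1002, 959.4 and 1170 at P30. For both the ages were far apart. Of the targets not called, Tgfbi (−1.05), Fn1 (−0.87) and Pmepa1 (−0.39) were lower in every P30 isolation (limma, adjusted p = 0.0368, 0.0166 and 0.138). Cyr61, Skil, Tagln and Acta2 were higher in every P30 isolation, and Col1a1 and Klf10 overlapped. The list holds Col1a1, Acta2 and Tagln, which are markers of fibroblasts or smooth muscle above.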

How the data were processed

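RNAseq of sorted choroid ECs was analysed for 3 P5 and 3 P30 isolations, grouped by their labels. The members and all gene lists were chosen with earlier results of these data known. The authors prepared libraries with the TruSeq RNA kit, sequenced 4 samples per lane, processed reads with CASAVA 1.8.2 and FastQC (per the labels), aligned to mm9 with TopHat and deposited FPKM values from Cufflinks per gene symbol, with GC and upper quartile normalization. Versions of TopHat and Cufflinks and the gene annotation are not given in the sources used here. Read counts were not used here, so depth is unknown, and no interval or detection floor was calculated. The number of isolations limits the precision.

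Values of log2(FPKM + 1) were tested with limma 3.58.1 (R 4.3.3; lmFit, eBayes with a trend, no block) for each gene whose mean reached 5 FPKM in either age group. The limits, adjusted p under 0.01 and 2-fold in mean FPKM + 1, follow the authors. Fold changes on this scale understate those of low genes. The fit was tested on simulated data. An exact permutation test of 3 against 3 isolations cannot give a two-sided p below 0.1 and was not used. Named are all members, the called genes of each list (at most the 4 with the largest log2 fold change), all genes of the receptor and SMAD lists, and the 3 genes nearest in pattern to each called member. Some genes under this rule are not reported here. Further genes were named after their values were seen. These were genes whose calls depended on single libraries, markers, overlapping genes, and genes not called in the activator, anchor and target lists. Positions are from GENCODE on mm9 and promoters from RefSeq, matched by symbol. Tables and figures were made with Python 3.11.15, pandas 2.3.3, numpy 2.4.6 and matplotlib 3.10.9. Alternatives were other pseudocounts, FPKM minimums, scalings and limits, no trend, a replicate block and leaving out each isolation.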

Additional observations from a re-analysis of the deposited data

How the results depend on the processing

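With 3 isolations per age and unknown depth, the calls near the limits were the least stable. Over the fits that left out 1 isolation, the number of members higher at P30 ran from 1 to 2 (3 with all isolations), that of pathway genes higher from 8 to 12 (13) and that of pathway genes lower from 0 to 4 (2). Members lower numbered 1 (Tgfbr1) without the 2-fold limit and 0 under every other alternative run. Pathway genes lower numbered 1 with no FPKM minimum, 1 with no trend, 4 under quantile normalization, 7 after rescaling to the same summed FPKM and 5 without the 2-fold limit. The sign of the log2 fold change turned for Tgfb1 under quantile normalization (−0.056) and rescaling (−0.059), for Acvr2b (−0.059) and Hgs (−0.12) under rescaling, for Tgfb2 without P5 replicate 3 (lowest −0.14 and highest 0.46 over the isolations left out), and for Zfyve9 without P30 replicate 3 (−0.173 to 0.058 over the isolations left out). The other members and receptor, SMAD and called pathway genes kept their direction under every alternative run. Ltbp4 was also not called with no FPKM minimum, no trend or quantile normalization (limma, adjusted p = 0.0118, 0.0195 and 0.0126).

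With the replicate number as a block, 1 member was called higher (Tgfbr3), while Tgfb3 and Ltbp4 had adjusted p of 0.0114 and 0.0101 (limma), and over all genes 585 were higher and 524 lower. The numbers do not pair the isolations: same-numbered isolations deviated from their age means with correlations across genes of −0.06, −0.09 and −0.03, so the replicate block is given only as a comparison of fits.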
